A study of Mus musculus with 40 samples.

Results

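Ribosome-bound RNA of astrocytes from the nucleus accumbens (NAC) was set against that from the caudate putamen (CPU), the ventral and dorsal divisions of the mouse striatum, in mice labelled control or resilient. There were 6 NAC libraries (3 control, 3 resilient) and 4 CPU libraries (2 control, 2 resilient), chosen by their labels, 10 of the 40 libraries of the series. The 7 stressed libraries of both regions were kept apart and used for the same contrast in other mice, and the 13 control and resilient libraries of the prefrontal cortex (PFC) and hippocampus (HIP) were used as levels only. All mice were adults of the line Tg(Aldh1l1-EGFP/Rpl10a)JD130Htz, 1 transgenic line in which the Aldh1l1 promoter, active in astrocytes, drives an EGFP-tagged ribosomal protein. Tagged polysomes were pulled down with antibodies against EGFP and the RNA on them was sequenced (translating ribosome affinity purification, TRAP). Resilient mice had met an aggressive CD1 mouse for 10 minutes on each of 10 days and still had a social interaction index above 1; stressed mice had an index below 1 after the same defeat, and control mice were never defeated but were housed in the same room. The resilient libraries are therefore not from unstressed mice, and only the mice that avoided contact are left out. Tissue was taken 2 days after the last defeat. A NAC library pooled 4 to 6 mice and a CPU library 2, so pool size and region cannot be told apart.

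Astrocytes take up transmitter at synapses, buffer potassium, supply lactate and release factors that shape synapses, and they keep traces of the position at which they arose in the embryonic brain. Both striatal divisions hold the same classes of projection neurons, but the accumbens belongs to the circuits of reward and the caudate putamen to those of movement and habit. A regional difference in TRAP RNA can come from the astrocytes themselves or from RNA of neighbouring cells carried through the pull-down. In bulk samples of this kind, fewer cells of a type and less RNA per cell cannot be told apart.

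Total counts in genes were 23.3 to 30.3 M in NAC libraries and 21.7 to 25.6 M in CPU libraries, with 18125 to 18692 and 17781 to 18295 genes detected in NAC and CPU libraries. Levels are given as counts per M counts (CPM) after scaling by TMM factors, and CPU values stand in the order control 1, control 2, resilient 1, resilient 2. The first principal component (30.4% of the variance) had all NAC libraries on one side and all CPU libraries on the other. NAC control 2 and CPU control 2 lay nearest to each other on it, at −9.02 and 8.36, and the other libraries between −30.9 and −16.5 (NAC) and between 35.6 and 41.8 (CPU). The defining astrocyte genes were abundant in both regions. Aldh1l1, whose promoter drives the tag, averaged 419 ± 98.1 CPM in NAC and 402 ± 48.3 CPM in CPU (SD, n = 6 and 4), and none of 24 core astrocyte genes was called. Their summed level was not even across libraries. It was 31600 CPM in NAC control 1 and 31810 CPM in NAC resilient 1, against 39550 to 56960 CPM in the rest. Only these 2 of the 10 libraries have a long form of file name, and no CPU library has it. The cause of their lower sums was not tested.

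Of 15218 genes tested, 410 (2.69%) differed between the regions at an adjusted p under 0.05 (edgeR's quasi-likelihood test with Benjamini-Hochberg adjustment, condition as a block). In NAC 252 genes were higher (1.66%) and 158 lower (1.04%). Of these, 153 were more than 2-fold higher and 81 more than 2-fold lower. The median log2 difference was 1.27 among the genes called higher and −1.02 among those called lower, against 0.0148 over all genes tested. For 361 of the 410 the NAC and CPU ranges did not overlap, as was the case for 5.38% of all genes tested. Among the 5864 genes with a mean level of at least 5 log2 CPM, 60 were higher and 35 lower in NAC. How many genes passed depended on single libraries. The count was 190 without NAC resilient 2, 249 without NAC resilient 3, 163 without CPU control 1, 119 without CPU resilient 1, 85 without CPU resilient 2 and, left out together after seeing the data, 1011 without NAC and CPU control 2. In each of these fits every one of the 410 genes that was tested kept its sign. The genes were chosen with these same libraries, so their signs were largely fixed in advance. Of 73 called genes picked by a naming rule and reported here, 24 passed in every fit that left out 1 library, among them Slc25a18, Olig1, Olig2, Adora1, Vip, Lef1, Scel, Thbs4, Coch, Nupr1 and Cnr1, and the other 49 lost the call in at least 1 such fit.

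Numbers in the file names gave another grouping of the libraries. In 4 NAC and 4 CPU libraries whose names share a short form, libraries of the same number deviated together between the regions, with a correlation of 0.541 for the control and 0.304 for the resilient pairs. What these numbers mark is not given in the sources used here. With them as a block, 2210 of 15262 genes were called (14.5%), 1050 higher (6.88%) and 1160 lower (7.6%) in NAC; the same libraries without the block gave 326 (2.18%). Statements that a list held few or no calls are of the fit without this block. Under it 5 of the 24 core astrocyte genes were called higher and 3 lower, and 10 of 21 astrocyte transcription factor genes higher and 1 lower. Of the 25 genes of glutamate and GABA handling tested under it, 6 were higher and 7 lower. Of the genes examined one by one, 77 of those called were also called under it, while Cartpt (adjusted p = 0.0818), Slco1a4 (adjusted p = 0.0507) and Sncb (adjusted p = 0.1085) were not.

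**Figure D1:**
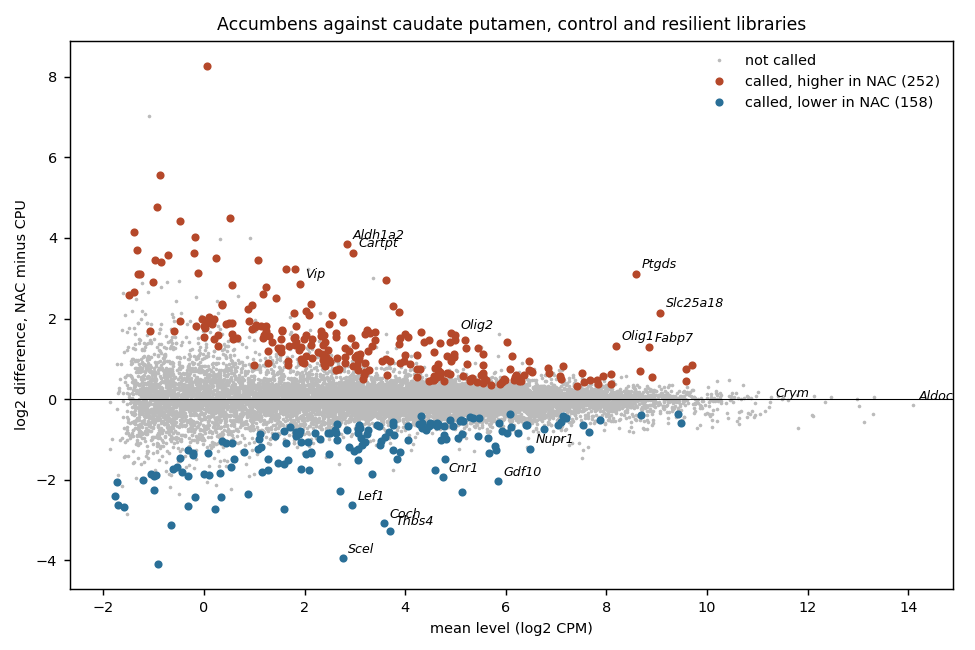
Log2 difference (NAC minus CPU) against mean level (log2 CPM) for the 15218 genes tested, control and resilient libraries; coloured points passed an adjusted p of 0.05. The 252 genes higher in NAC include abundant ones such as Slc25a18 and Ptgds, the 158 lower ones are led by Scel, Thbs4 and Coch, and the striatal astrocyte gene Crym lies near 0.

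Among abundant transcripts, the mitochondrial glutamate carrier gene Slc25a18 was higher in NAC in every library. Its level ran from 576 through a median of 746 to 1073 CPM in the 6 NAC libraries, against 129, 281, 138 and 151 CPM in CPU, a 4.42-fold difference (log2 difference 2.15 ± 0.251, SE; adjusted p = 0.00261). The lowest NAC library stood above the highest CPU library, which was control 2. Slc25a18 lies on chromosome 6 (chr6:120773578-120794336, plus strand, GRCm38). The neighbouring basic helix-loop-helix genes Olig1 and Olig2, 41.1 kb apart on chromosome 16 and best known from the oligodendrocyte lineage, moved together. Olig1 had 301 to 469 CPM (median 364) in NAC and 136, 202, 123 and 147 CPM in CPU (1.32 ± 0.154, adjusted p = 0.00243). Olig2 had 28.5 to 52.7 CPM (median 44.5) in NAC and 15.5, 17.3, 12.2 and 11.9 CPM in CPU (1.60 ± 0.156, adjusted p = 0.00101). Neither gene's ranges overlapped. Other genes of the oligodendrocyte precursor list did not follow them. Only Olig1 and Olig2 passed among its 11 members (median log2 difference 0.116). Pdgfra, the growth factor receptor that defines these precursors, averaged 2.31 ± 1.06 CPM in NAC and 3.04 ± 1.23 CPM in CPU (log2 difference −0.40, adjusted p = 0.604). Cspg4 (−0.16, adjusted p = 0.874) and Sox10 (0.17, adjusted p = 0.759) did not pass either.

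Fabp7, the brain fatty acid binding protein made by astrocytes and radial glia, had 465 to 916 CPM (median 544) in NAC and 148, 362, 233 and 228 CPM in CPU (1.28 ± 0.263, adjusted p = 0.0301). The ranges did not overlap, with CPU control 2 again the highest of its region, but the adjusted p rose to between 0.0537 and 0.102 when NAC resilient 2, NAC resilient 3 or any CPU library except control 2 was left out. Adora1, the adenosine A1 receptor, which lowers cyclic AMP, stood at 158 to 177 CPM (median 168) in NAC and 108, 107, 89.1 and 78.1 CPM in CPU (0.82 ± 0.0809, adjusted p = 0.00108), and the gap between the 2 regions was wider than the whole NAC range. Hes5, a Notch target, was 1.36-fold higher in NAC (849 ± 62.1 CPM in NAC, 624 ± 68.9 CPM in CPU; adjusted p = 0.0124) and was the only one of 21 astrocyte transcription factor genes called. Pygm, a glycogen phosphorylase of astrocytes, averaged 137 ± 31.5 CPM in NAC and 79.3 ± 9.31 CPM in CPU (adjusted p = 0.0475), the only one of 19 genes of glucose, glycogen and lactate metabolism to pass.

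**Figure D2:**
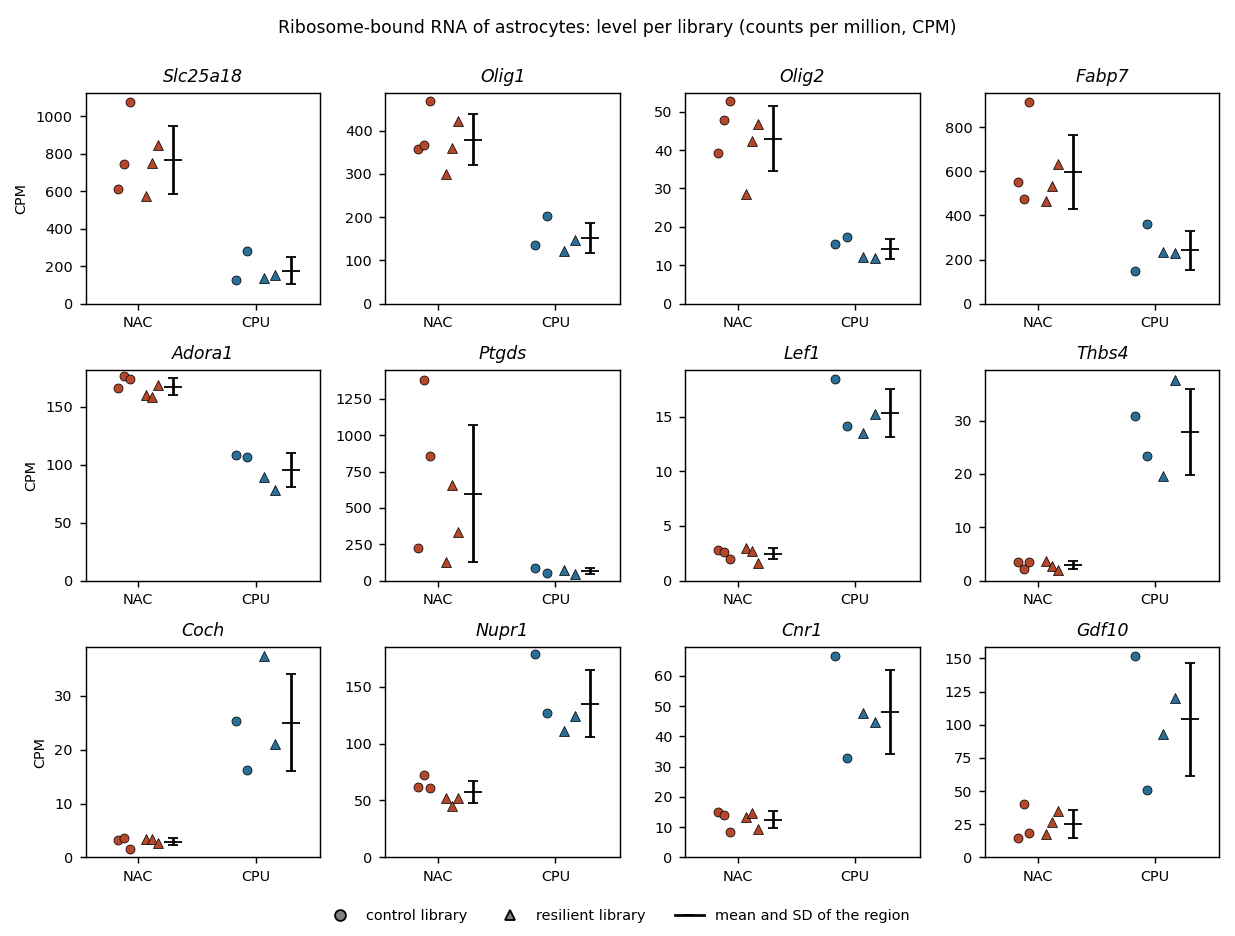
Level in CPM of 12 genes in each library (circles control, triangles resilient) with the mean and SD of the region, NAC left and CPU right. In all 12 genes the lowest library of the higher region stands above the highest library of the lower region; Ptgds spans 130 to 1381 CPM within NAC.

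On the other side, transcripts lower in NAC were led by genes of moderate level that the caudate putamen libraries all carried. Scel, which encodes sciellin, a protein known from the cornified envelope of skin, had 0.447 to 1.54 CPM (median 0.983) in NAC and 19.5, 9.36, 12.6 and 19.6 CPM in CPU. It was 15.4-fold higher in CPU (log2 difference −3.94 ± 0.315, adjusted p = 0.000262). Thbs4, a secreted thrombospondin, had 2.05 to 3.57 CPM (median 3.02) in NAC and 30.9, 23.4, 19.6 and 37.7 CPM in CPU (−3.27 ± 0.23, adjusted p = 0.000159). Coch, an extracellular matrix protein best known from the inner ear, had 1.58 to 3.5 CPM (median 3.23) in NAC and 25.4, 16.3, 37.3 and 21.1 CPM in CPU (−3.08 ± 0.239, adjusted p = 0.000262). For none of these 3 genes did the ranges overlap, and CPU control 2 was the lowest CPU library for Scel and Coch. Lef1, the nuclear partner of beta-catenin in Wnt signalling, had 1.65 to 2.99 CPM (median 2.69) in NAC and 18.4, 14.2, 13.5 and 15.2 CPM in CPU (−2.63 ± 0.18, adjusted p = 0.000159). It lies at chr3:131110471-131224356 on the plus strand. Nupr1, a small stress-induced nuclear protein, had 45.6 to 72.3 CPM (median 56.6) in NAC and 178, 127, 111 and 124 CPM in CPU (−1.23 ± 0.099, adjusted p = 0.000262).

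Receptors and secreted factors were also among the genes lower in NAC. Cnr1, the cannabinoid receptor CB1, had 8.50 to 15 CPM (median 13.6) in NAC and 66.6, 32.9, 47.7 and 44.7 CPM in CPU (−1.94 ± 0.211, adjusted p = 0.00194), with no overlap. Gdf10, a ligand of the TGF-beta family, had 14.6 to 40.4 CPM (median 22.3) in NAC and 152, 50.9, 93.2 and 120 CPM in CPU (−2.04 ± 0.337, adjusted p = 0.0124). Acvrl1, a type I receptor of the same family, averaged 0.907 ± 0.393 CPM in NAC and 6.03 ± 1.30 CPM in CPU (−2.72 ± 0.28, adjusted p = 0.00119). Tph2, the brain enzyme of serotonin synthesis, averaged 2.46 ± 0.709 CPM in NAC and 12.3 ± 4.98 CPM in CPU (−2.27 ± 0.193, adjusted p = 0.000329), and the serine protease gene Prss56 averaged 13.3 ± 7.47 CPM in NAC and 66.7 ± 37.5 CPM in CPU (−2.31 ± 0.429, adjusted p = 0.0204). Colq, the collagen tail of acetylcholinesterase, fell by 1.86 on the log2 scale (adjusted p = 0.0213), Serinc2 by 1.81 (adjusted p = 0.00489) and Ccdc80, a secreted matrix protein, by 0.96 (adjusted p = 0.00454). At a mean level above 5 log2 CPM, Spock3, a secreted proteoglycan, averaged 35.4 ± 12.2 CPM in NAC and 84.4 ± 26.4 CPM in CPU (adjusted p = 0.0465), AI593442 averaged 31.6 ± 11.9 CPM in NAC and 78.8 ± 15.2 CPM in CPU (adjusted p = 0.0264), and Gpr155 averaged 23.6 ± 6.82 CPM in NAC and 45.9 ± 12.4 CPM in CPU (adjusted p = 0.0431). Pcdhgc5, a clustered protocadherin that shares its last exons with its neighbours and is uncertain for that reason, averaged 26.1 ± 5.61 CPM in NAC and 47.6 ± 8.94 CPM in CPU (adjusted p = 0.0213).

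Upstream sequence is shown for 1 gene of each direction that passed in both the control and resilient libraries and the stressed libraries, Adora1 (higher in NAC) and Lef1 (lower in NAC), so that the genomic context of each can be read. Each line is the 250 bases before the first RefSeq start listed for the gene (GRCm38.p6), 5′ to 3′ on the gene's own strand, with GC boxes (GGGCGG on either strand) in capitals; Adora1 is at chr1:134235458-134235707 on the minus strand and Lef1 at chr3:131110047-131110296 on the plus strand.
Adora1: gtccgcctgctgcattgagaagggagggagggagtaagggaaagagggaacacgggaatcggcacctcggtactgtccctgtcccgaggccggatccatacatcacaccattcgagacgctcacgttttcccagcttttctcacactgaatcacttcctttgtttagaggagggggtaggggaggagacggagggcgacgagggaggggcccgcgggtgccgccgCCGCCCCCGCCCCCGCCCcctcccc
Lef1: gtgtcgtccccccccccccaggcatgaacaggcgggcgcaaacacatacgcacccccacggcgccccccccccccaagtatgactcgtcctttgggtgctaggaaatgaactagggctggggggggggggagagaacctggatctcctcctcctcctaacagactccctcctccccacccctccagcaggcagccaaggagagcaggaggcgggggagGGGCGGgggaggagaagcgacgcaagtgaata
The Adora1 window held 3 GC boxes set end to end and the Lef1 window 1, and neither held the homeodomain core TAATTA, the TATA box TATAAA, the E-boxes CACGTG and CAGGTG, the nuclear receptor motif AGGTCA, the cAMP response element or the nuclear factor I site, on either strand. Of 14012 such windows of tested genes, 56.3% held a GC box, 2.50% TAATTA, 6.39% TATAAA, 8.11% CACGTG, 15.9% CAGGTG, 10.8% AGGTCA, 2.57% the cAMP response element and 0.0214% the nuclear factor I site. A comparison of motifs between called and other genes is void, since 189 of the 252 genes called higher and 101 of the 158 called lower had a sequence, fewer than 80%.

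Signalling pathways that pattern the striatum had members on both sides. In a list of 36 tested genes of hedgehog, Wnt, BMP and FGF signalling, 4 were higher and 3 lower in NAC (median log2 difference 0.132). Gli1, the effector and target of hedgehog signalling, averaged 3.83 ± 0.572 CPM in NAC and 1.25 ± 0.796 CPM in CPU (1.71 ± 0.261, adjusted p = 0.00895), while Hhip, which binds hedgehog ligands, was lower in NAC (−0.93 ± 0.197, adjusted p = 0.0336). The ligand gene Bmp7 averaged 39.6 ± 8.60 CPM in NAC and 18.4 ± 2.76 CPM in CPU (1.11 ± 0.174, adjusted p = 0.00942), while Chrdl1, a secreted BMP antagonist, averaged 12.2 ± 4.76 CPM in NAC and 41.3 ± 21.1 CPM in CPU (−1.75 ± 0.353, adjusted p = 0.0281). The CPU values of Chrdl1 were 69.2, 18.1, 39.2 and 38.6 CPM, so CPU control 2 fell inside the NAC range of 6.56 to 19.9 CPM. The Wnt receptor gene Fzd9 was higher in NAC (1.38 ± 0.275, adjusted p = 0.0268) and the secreted Wnt inhibitor gene Sfrp1 lower (−1.26 ± 0.149, adjusted p = 0.00253). Spry1, an inhibitor of FGF signalling, was higher in NAC (0.68 ± 0.157, adjusted p = 0.0475).

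Of 30 neuromodulator receptor genes tested, Adora1 and Htr4 were higher and Cnr1 lower in NAC (median 0.0559). Htr4, a serotonin receptor, averaged 1.48 ± 0.564 CPM in NAC and 0.371 ± 0.0981 CPM in CPU (1.99 ± 0.324, adjusted p = 0.0106). Kcnk10, a background potassium channel, was the only one of 19 genes of potassium, water, chloride and gap junction handling to pass, with 5.37 ± 1.16 CPM in NAC and 12.6 ± 3.02 CPM in CPU (adjusted p = 0.0101). None of 24 genes of glutamate and GABA handling outside the core list was called (median 0.00143); the GABA-B receptor gene Gabbr2 had the smallest p among them, with 156 ± 50.5 CPM in NAC and 94.5 ± 22.1 CPM in CPU (adjusted p = 0.169). Lipid transport and cholesterol genes had Fabp7 higher and Cyp39a1, an oxysterol hydroxylase, lower in NAC (−0.99, adjusted p = 0.0497) among 25, and 23 of the 25 had a negative value (median −0.308). Their summed level was 7500 to 26580 CPM in NAC and 10200 to 27470 CPM in CPU. Apoe alone averaged 8928 ± 6449 CPM in NAC and 11623 ± 7335 CPM in CPU (adjusted p = 0.726), and the highest sums of the list were in NAC control 2 and CPU control 1.

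Reference genes of astrocytes were not called in the fit without a replicate block. The glutamate transporter gene Slc1a2 averaged 1315 ± 851 CPM in NAC and 2000 ± 1121 CPM in CPU (−0.61 ± 0.418, adjusted p = 0.486). Gfap, the filament protein of astrocytes, averaged 1547 ± 511 CPM in NAC and 1100 ± 325 CPM in CPU (0.49 ± 0.274, adjusted p = 0.397). The adjusted p was 0.545 for Aldoc, 0.593 for the glutamate transporter gene Slc1a3, 0.764 for the water channel gene Aqp4, 0.511 for the gap junction gene Gja1 and 0.373 for Rpl10a, the ribosomal protein gene of the tag. With the file-name numbers as a block Gfap (0.76, adjusted p = 0.00382), Rpl10a (0.41, adjusted p = 0.00895) and Aldh1l1 (0.22, adjusted p = 0.0324) were called higher and Slc1a2 lower (−0.34, adjusted p = 0.00887) in NAC. Crym, which binds thyroid hormone and marks striatal astrocytes, averaged 2379 ± 383 CPM in NAC and 2492 ± 280 CPM in CPU (−0.07 ± 0.112, adjusted p = 0.777), against 23.3 ± 7.78 CPM in PFC and 64.1 ± 36.3 CPM in HIP (SD, n = 7 and 6). The NAC range of 1889 to 2837 CPM spanned the CPU range of 2158 to 2795 CPM.

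Position genes of the forebrain showed a few NAC-high members. Of 28 regional patterning transcription factor genes tested, 4 were higher, Tshz2, Nkx6-2 and Nkx2-2 among them, and none lower (median 0.0147). Nkx6-2, a homeodomain factor of ventral progenitors and glia, had 47.3 to 86.3 CPM (median 55.6) in NAC and 27.4, 29.5, 27.2 and 23.7 CPM in CPU (1.13 ± 0.171, adjusted p = 0.00891). Its ranges did not overlap. Tshz2 averaged 5.69 ± 0.923 CPM in NAC and 1.26 ± 0.446 CPM in CPU (2.19 ± 0.239, adjusted p = 0.00194) and Nkx2-2 averaged 10.3 ± 1.49 CPM in NAC and 6.75 ± 0.705 CPM in CPU (0.60 ± 0.14, adjusted p = 0.0475). The striatal factor Six3 had 72.2 ± 7.12 CPM in NAC and 67.7 ± 14.4 CPM in CPU (adjusted p = 0.632).

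Of 28 neuropeptide and secreted ligand genes tested, 5 were higher in NAC (Cartpt, Vip, Crh, Pdyn and Nts) and Gdf10 was lower. Cartpt, the precursor of the CART peptide, had 5.55 to 16.3 CPM (median 14.1) in NAC and 0.683, 2.79, 0.389 and 0.189 CPM in CPU (3.64 ± 0.633, adjusted p = 0.015). The opioid precursor gene Pdyn had 51.5 to 126 CPM (median 90.5) in NAC and 35.8, 31.3, 41.0 and 19.6 CPM in CPU (1.42 ± 0.287, adjusted p = 0.0286). Both genes' ranges were apart. Vip averaged 5.48 ± 2.37 CPM in NAC and 0.743 ± 0.235 CPM in CPU (2.86 ± 0.295, adjusted p = 0.00119), and Nts averaged 6.23 ± 2.13 CPM in NAC and 1.18 ± 0.614 CPM in CPU (2.35 ± 0.389, adjusted p = 0.0124). Crh averaged 1.24 ± 0.463 CPM in NAC and had 0.0911, 0.149, 0.0432 and 0 CPM in the CPU libraries, so its level there rests on very few counts. The synaptic organizers Cbln2 (log2 difference 1.83, adjusted p = 0.00581) and Cbln4 (2.35, adjusted p = 0.0141) were the only calls among 26 genes of secreted and matrix proteins that organize synapses (median −0.218). The guidance cue Ntn1 (1.22, adjusted p = 0.0281) was the only call among 37 genes of axon guidance and adhesion (median −0.0128), and the calmodulin-dependent phosphodiesterase gene Pde1a (1.42, adjusted p = 0.0124) the only one among 31 genes of calcium and cyclic AMP signalling (median −0.0412). The calcium sensor gene Vsnl1 (1.46, adjusted p = 0.00569), the synuclein gene Sncb (1.28, adjusted p = 0.0392) and the copine gene Cpne6 (1.27, adjusted p = 0.0101) were higher in NAC too.

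Neuron markers were read beside these genes, and their part in the differences was examined only with a marker term in the fit. All 16 general neuron genes had a positive log2 difference (median 0.413), but only Elavl4, an RNA-binding protein gene of neurons, passed (0.94 ± 0.118, adjusted p = 0.00335). Their summed level was 1474 to 3035 CPM (median 2758) in NAC and 1442 to 2151 CPM (median 1967) in CPU, and the ranges overlapped; NAC control 3 and NAC resilient 3 had the lowest NAC sums, at 1474 and 1602 CPM. In a list of 8 genes known from septal and olfactory tubercle neurons, 4 were higher in NAC (Zic1, Zic4, Nts and Tac2). The summed level of the list did not overlap, with 15.7 to 28.1 CPM in NAC and 4.90 to 10.7 CPM in CPU. Zic4 averaged 4.76 CPM in NAC, against 9.49 CPM in PFC and 11.5 CPM in HIP. Zic1 (1.27, 2.05 and 1.95 CPM) and Tac2 (1.40, 3.75 and 1.93 CPM) were likewise higher in PFC and HIP. These genes therefore do not single out tissue next to the accumbens here. Nts averaged 0.0307 CPM in PFC and 0.644 CPM in HIP. Among 10 genes of excitatory cortical neurons Slc17a7, Neurod2 and Tbr1 were higher, with sums of 136 to 265 CPM in NAC and 124 to 150 CPM in CPU. The list did not move 1 way, as 6 members had a positive and 4 a negative value (median 0.76, lowest −1.12). With the file-name numbers as a block 3 of them were called higher and 2 lower. Slc17a7, the vesicular glutamate transporter of cortical neurons, averaged 41.8 ± 18.3 CPM in NAC and 15.3 ± 4.63 CPM in CPU, against 120 CPM in PFC. Of 14 interneuron genes Pvalb (1.53, adjusted p = 0.0101) and Calb2 (1.03, adjusted p = 0.0104), both calcium-binding proteins, were higher. In this list 10 genes had a positive and 4 a negative value (median 0.226, lowest −0.854). Both the neuron marker term and the file-name block gave 2 genes called higher and 2 called lower. With the neuron marker level as a term in the fit, the log2 difference was 2.76 for Cartpt (adjusted p = 0.0316), 0.84 for Pdyn (adjusted p = 0.014), 1.74 for Nts (adjusted p = 0.0153) and 1.06 for Slc17a7 (adjusted p = 0.025; 1.47 without the term), all still called. Neurod2, Tbr1 and Tac2 no longer passed, although their differences moved less than that of Pdyn. With the term Neurod2 had 1.34 (adjusted p = 0.0625), against 1.51 without it, Tbr1 had 1.00 (adjusted p = 0.0756), against 1.06, and Tac2 had 1.60 (adjusted p = 0.0904), against 1.87. In that fit 745 genes were called (4.8%), and the share of calls higher in NAC was 45.1%, against 61.5% without the term.

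Genes of D2 neurons and those shared by both classes of striatal projection neurons had mostly negative values. Of 8 genes of D1 neurons Pdyn and Sfxn1 were higher, with sums of 316 to 445 CPM in NAC and 293 to 370 CPM in CPU, and 4 of the 8 had a negative value. Sfxn1 averaged 183 CPM in NAC and 145 CPM in CPU, a large part of these sums. It averaged 289 CPM in PFC and 200 CPM in HIP, so it does not single out D1 neurons here. In the fit without other terms none of 8 genes of D2 neurons and none of 14 genes shared by both classes was called. All 8 D2 genes had a negative value (median −0.565), with sums of 230 to 662 CPM in NAC and 495 to 969 CPM in CPU, as had 13 of the 14 shared genes (median −0.58; 2029 to 4389 CPM in NAC and 3816 to 4956 CPM in CPU). The dopamine receptor gene Drd1 averaged 48.2 ± 16.1 CPM in NAC and 75.4 ± 20.8 CPM in CPU (adjusted p = 0.226), Drd2 averaged 23.3 ± 8.51 CPM in NAC and 37.7 ± 10.5 CPM in CPU (adjusted p = 0.215), and Scn4b, a sodium channel subunit gene, averaged 109 ± 36.0 CPM in NAC and 230 ± 55.9 CPM in CPU (adjusted p = 0.0571). Other fits did call such genes. With the neuron marker term 10 of the 14 shared, 4 of the 8 D2 and 3 of the 8 D1 genes were lower in NAC, where 2.64% of all genes tested were called lower. With the file-name numbers as a block 10 shared, 7 D2 and 3 D1 genes were lower, where 7.6% of all genes tested were called lower. Drd1 (−0.91, adjusted p = 0.0003), Drd2 (−1.04, adjusted p = 9.36e-05) and Scn4b (−1.33, adjusted p = 0.000457) passed in edgeR with this block. In both of these fits 2 of the 8 D1 genes were called higher.

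Markers of the brain's coverings moved with part of the NAC-high genes. Of 9 tested genes of meningeal fibroblasts, Aldh1a2, the enzyme of retinoic acid synthesis, and Slc6a13, a GABA and taurine transporter, were higher in NAC. All 9 had a positive value (median 2.04). With the file-name numbers as a block 10 genes of the list were tested and 9 were called higher, where 6.88% of all genes tested were. Their summed level was 16, 64.6, 72.9, 9.88, 46.3 and 23.3 CPM in NAC control 1 to 3 and resilient 1 to 3, and 10.5, 10.1, 9.21 and 6.74 CPM in the CPU libraries. Aldh1a2 had 2.63 to 24.2 CPM (median 10.3) in NAC and 0.774, 0.520, 0.908 and 0.801 CPM in CPU (3.84 ± 0.644, adjusted p = 0.0131). Ptgds, the prostaglandin D synthase made in large amounts by the leptomeninges, had 130 to 1381 CPM (median 497) in NAC and 88.0, 50.8, 73.2 and 42.1 CPM in CPU (3.12 ± 0.588, adjusted p = 0.0213). NAC resilient 1, the library with the lowest meningeal sum, was also the lowest NAC library for Ptgds. The sulfate transporter gene Slc13a4 (3.22, adjusted p = 0.0402) and the sphingosine kinase gene Sphk1 (3.46, adjusted p = 0.0264) were higher in NAC as well. The defining fibroblast collagen gene Col1a1 averaged 1.51 ± 0.574 CPM in NAC and 1.46 ± 0.88 CPM in CPU (adjusted p = 0.926). Col3a1 and Lum had too few counts to be tested in the fit without that block, and no list member was at 0 in all libraries. With the meningeal marker level as a term in the fit, an alternative chosen after seeing the data, 54 genes were called. The log2 difference of Ptgds was 1.00 (adjusted p = 0.238) and of Aldh1a2 1.69 (adjusted p = 0.0779). Aldh1a2 is part of that marker level, so its weakening was partly fixed in advance. Slc25a18 lost its call at 1.73 (adjusted p = 0.0707), against 2.15 without the term. Olig2 (1.26, adjusted p = 0.0283), Adora1 (0.81, adjusted p = 0.0283), Lef1 (−2.38, adjusted p = 0.0214) and Thbs4 (−2.91, adjusted p = 0.0255) were still called. The summed markers stood above the CPU range in all NAC libraries but resilient 1, so the term overlaps with region. A lost call therefore does not sort meningeal genes from others.

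Vessel, choroid plexus and other glial markers gave at most 2 calls per list in the fit without a replicate block. Over all genes tested 1.66% were called higher and 1.04% lower in that fit. All 9 endothelial genes tested had a negative value (median −1.79) and 2 passed, the transporter gene Slco1a4 (−2.36 ± 0.513, adjusted p = 0.0385) and the junction gene Esam (−1.23 ± 0.235, adjusted p = 0.0213). Their summed level was 8.04 to 16 CPM in NAC and 13.5, 52.9, 28.2 and 17.9 CPM in CPU, highest in control 2. Slco1a4 had 0.337 to 0.969 CPM (median 0.650) in NAC and 0.729, 6.80, 3.03 and 2.83 CPM in CPU, and CPU control 1 fell inside the NAC range. Of 4 choroid plexus genes tested Kl and Otx2 were higher in NAC, and all 4 had a positive value (median 1.2). Summed choroid plexus markers did not overlap, with 27.3 to 38.1 CPM in NAC and 10.6 to 21.3 CPM in CPU. Ttr, the defining and most abundant transcript of that tissue, had 7.61 ± 3.76 CPM in NAC and 5.97 ± 5.48 CPM in CPU (adjusted p = 0.729). Enpp2, the lysophospholipase autotaxin, was the only one of 14 oligodendrocyte genes called, with 31.6 ± 6.74 CPM in NAC and 59.9 ± 17.1 CPM in CPU (adjusted p = 0.0216). Thbs4 was the only one of 13 genes of neural stem cells and neuroblasts called. No gene of microglia (14 tested), mural cells (7), ependymal cells (9) or red blood cells (3) passed; summed ependymal markers were 25.4 to 55.2 CPM in NAC and 46.0 to 93.1 CPM in CPU. With the file-name numbers as a block 7 of the 9 ependymal and 7 of the 14 oligodendrocyte genes were lower in NAC. Tm4sf1 was the only one of 24 reactive astrocyte genes called, 1.63 ± 0.743 CPM in NAC and 4.82 ± 1.67 CPM in CPU (adjusted p = 0.0223), and Gpx3, a secreted glutathione peroxidase, the only one of 19 metallothionein and glutathione genes (0.99, adjusted p = 0.0143). None of 24 clock and immediate early genes, 30 ribosomal protein genes or 28 oxidative phosphorylation genes was called, with medians of 0.144, 0.0376 and −0.0106.

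**Figure D3:**
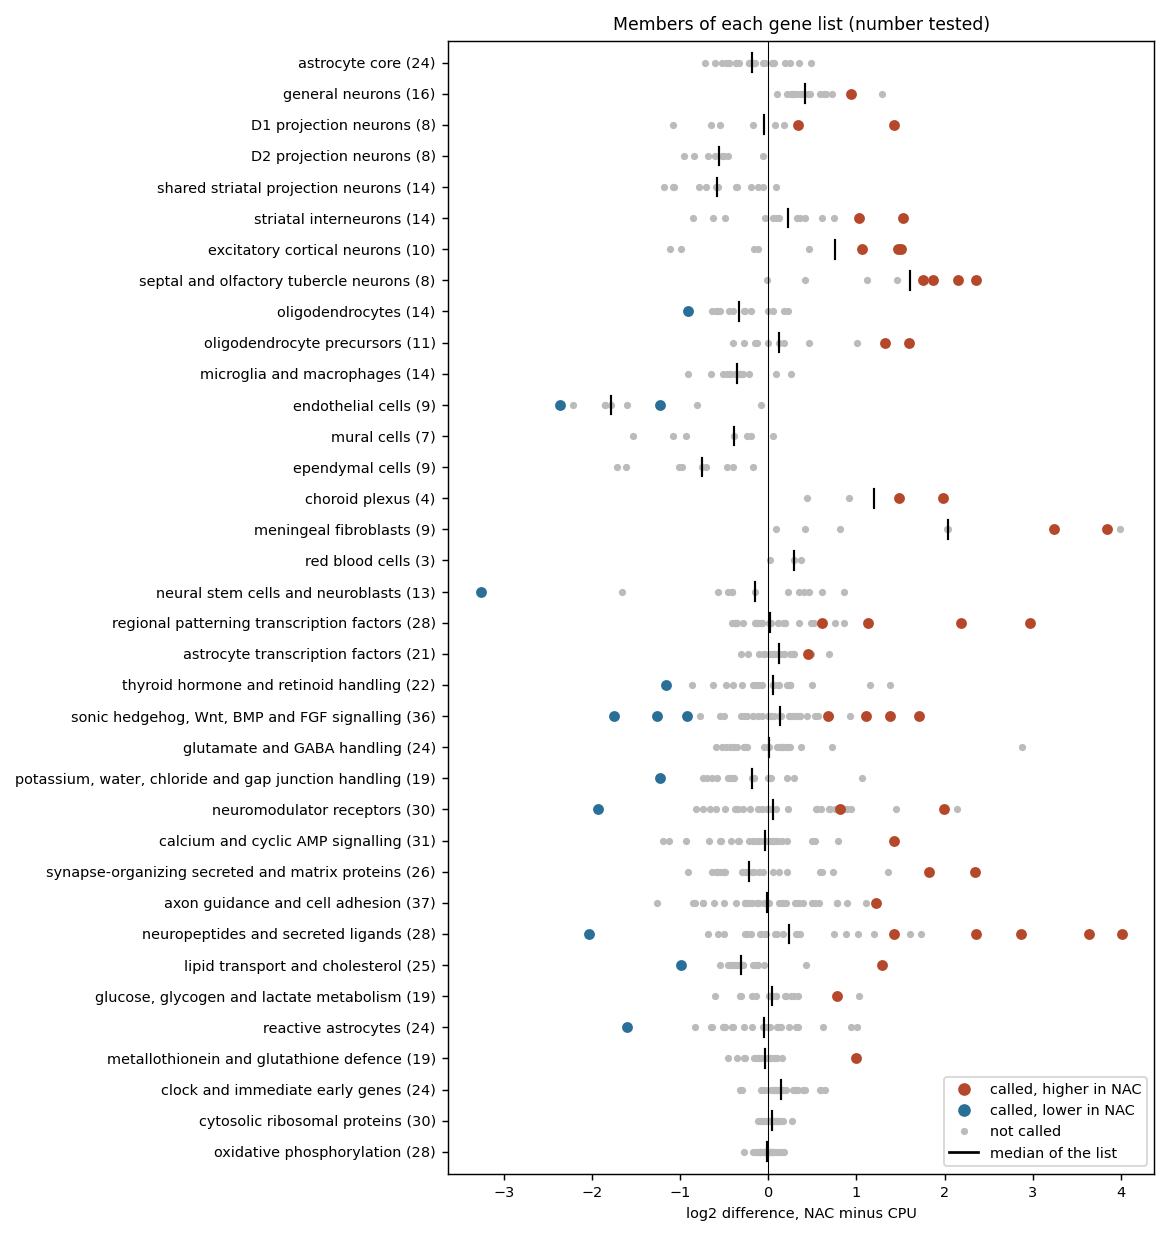
Log2 difference (NAC minus CPU) of each tested member of the 36 gene lists, 1 row per list; large coloured points were called and black bars are list medians. Called meningeal and septal members and 5 called neuropeptide members lie to the right, and Gdf10 of the neuropeptide list to the left. Endothelial and D2 neuron members lie left of 0, with no D2 gene called. Ribosomal and oxidative phosphorylation genes lie close to 0, and astrocyte core genes run from −0.716 to 0.486.

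The other regions place these differences. Of the 252 genes called higher in NAC, 209 (82.9%) had their lowest mean of the 4 regions in CPU and 72 (28.6%) their highest in NAC. Of the 158 called lower in NAC, 119 (75.3%) had their highest mean in CPU and 38 (24.1%) their lowest in NAC. Over all genes tested the mean was lowest in CPU for 29.4% and highest for 27.0%, and highest in NAC for 19.6% and lowest for 15%. The choice of the genes by their NAC and CPU values fixes part of these shares. Slc25a18 averaged 766 ± 180 CPM in NAC and 175 ± 71.6 CPM in CPU, against 1599 ± 111 CPM in PFC and 1180 ± 236 CPM in HIP. Olig1 (612 and 496 CPM), Fabp7 (588 and 630 CPM) and Adora1 (233 and 200 CPM, all in PFC and HIP) were likewise lowest in CPU. Coch, Scel, Cnr1 and Gdf10 had their highest mean in CPU. Cnr1 averaged 12.5 ± 2.79 CPM in NAC and 48.0 ± 14 CPM in CPU, against 15.8 CPM in PFC and 16.5 CPM in HIP, and Gdf10 averaged 25.3 ± 10.5 CPM in NAC and 104 ± 42.7 CPM in CPU, against 10.5 and 11.5 CPM in PFC and HIP. Lef1 had its lowest mean in NAC, with 2.47 ± 0.538 CPM in NAC and 15.3 ± 2.19 CPM in CPU, against 15.1 CPM in PFC and 6.26 CPM in HIP. Nkx6-2 had its highest mean in NAC, with 59.1 ± 14.4 CPM in NAC and 27.0 ± 2.40 CPM in CPU, against 13.7 CPM in PFC and 23.4 CPM in HIP.

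**Figure D4:**
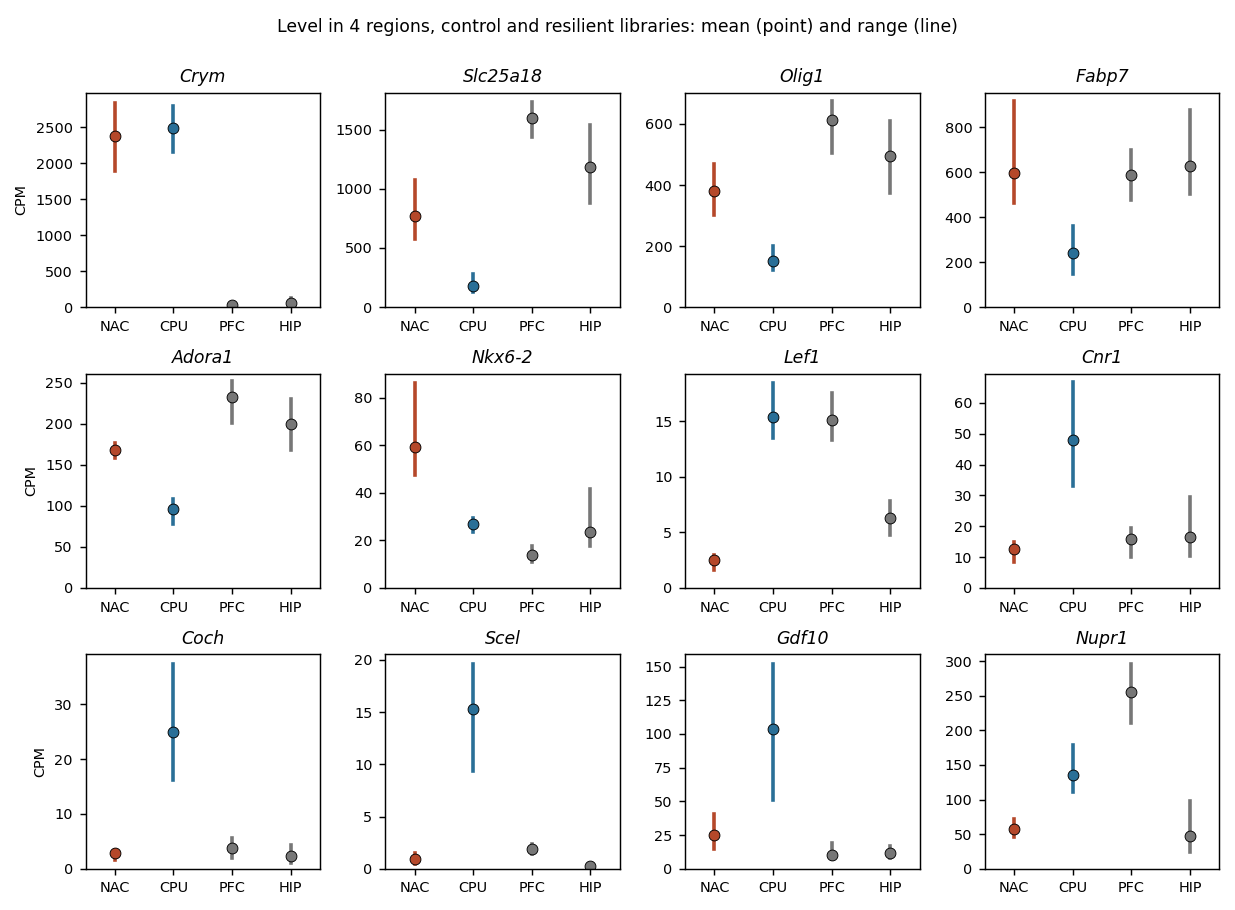
Mean (point) and range (line) in CPM of 12 genes in control and resilient libraries of NAC (6), CPU (4), PFC (7) and HIP (6). Crym is shared by both striatal regions, Slc25a18, Olig1, Fabp7 and Adora1 are lowest in CPU, and Coch, Scel, Cnr1 and Gdf10 are highest there.

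Whether the regional difference itself changed with defeat was asked next. The interaction of region and condition called 0 of 15514 genes (0%; edgeR, 249 at an unadjusted p under 0.05; DESeq2 called 0, with 315). The smallest interaction p-values were for Htr1a, BC108403, Arhgap22 and D630041G03Rik, all with an adjusted p of 1. Htr1a, a serotonin receptor gene, had log2 differences of 4.19 in resilient and 1.11 in control libraries, where its levels of 0.0865 to 0.669 CPM in CPU rest on few counts. Within 1 condition the test had fewer libraries. Resilient libraries alone called 11 genes and control libraries alone 0 (edgeR, 724 at an unadjusted p under 0.05, and DESeq2 was not run on them). Every one of the 410 genes that was tested in either kept its sign there. Since these libraries also served to choose the genes, that is no separate support.

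In libraries of stressed mice, which share no library with the comparison above, 33 of 14942 genes (0.221%) differed between 4 NAC and 3 CPU libraries, 23 higher (0.154%) and 10 lower (0.0669%) in NAC. Of the 410 called genes 400 were tested there, and 396 had the same sign, against 75.8% of the 14850 genes tested in both. The median stressed log2 difference was 1.2 among the genes called higher and −0.88 among those called lower. There were 29 genes called in both, 7.07% of the control and resilient list and 87.9% of the stressed list, all in the same direction. They included Slc25a18 (772 ± 168 CPM in NAC and 188 ± 60.2 CPM in CPU of stressed mice; 2.05 ± 0.275, adjusted p = 0.0452), Olig1 (1.28, adjusted p = 0.034), Olig2 (1.81, adjusted p = 0.0194), Adora1 (0.80, adjusted p = 0.0452), Lef1 (−2.77, adjusted p = 0.00247), Scel (−4.43, adjusted p = 0.0319), Cnr1 (−1.96, adjusted p = 0.0459), Cartpt (4.25, adjusted p = 0.034) and Aldh1a2 (4.68, adjusted p = 0.0459). The stressed count was unstable, 367 without NAC stressed 4 and 1 or 2 without any other stressed library. The 4 genes of opposite sign were Slco1a4 (−2.36 in control and resilient, 2.74 in stressed libraries), Esam (−1.23 and 0.50), Adcyap1 (3.39 and −0.39) and Fnip2 (0.87 and −0.18), and none of the 4 passed in stressed libraries.

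**Figure D5:**
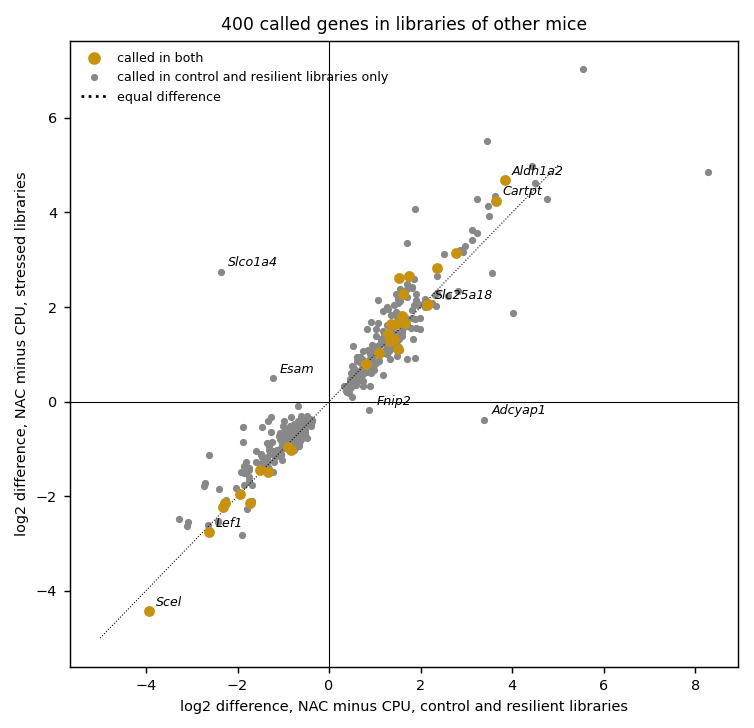
Log2 difference (NAC minus CPU) of 400 called genes in control and resilient libraries (x axis) and in stressed libraries (y axis), with the line of equal difference. Of these, 396 lie in the quadrants of equal sign, and Slco1a4, Esam, Adcyap1 and Fnip2 do not.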

How the data were processed

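The data were TRAP RNA-seq libraries of mouse brain astrocytes. The deposited values are whole-number read counts per gene symbol, not normalized, which the authors produced with STAR 2.0.0e and HTSeq (genome mm10) according to the submitters' processing notes. Which annotation and strand mode HTSeq used is not given in the sources used here, so overlapping, antisense and near-identical genes can share reads. HTSeq's closing lines and a row named "unknown" (at most 5 counts) were left out. Reads not counted to a gene were 17.2% to 18.9% of reads in the 10 libraries. They were mostly reads without a unique alignment (10.6% to 11.8%), with 3.94% to 4.19% ambiguous between genes. Reads in no gene were 2.46% (CPU resilient 1) to 3.15% (NAC control 1).

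Genes with low counts were removed with filterByExpr and libraries scaled by TMM factors. NAC was compared with CPU in edgeR 4.0.16 (R 4.3.3) by its quasi-likelihood F test, robust option, with condition as a block, two-sided, with Benjamini-Hochberg adjustment over all genes tested. The SE of a log2 difference is its size divided by the square root of F. Displayed CPM use TMM factors over all 40 libraries. On simulated counts the test was checked for recovery of known changes. Libraries of a group differed by more than sampling noise in every pair (chi-square per degree of freedom 24.4 to 132), so none was counted as a repeat. Pools of separate mice are the replicates, and which mice gave both regions is not given. Same replicate numbers in the labels did not pair NAC with CPU libraries (correlations of deviations −0.549 to 0.0335). Numbers in the short-form file names gave 0.541 for both control pairs and 0.304 for both resilient pairs; 2 libraries per group deviate as mirror images, so the 4 pairs hold 2 independent correlations. As no source used here says what these numbers mark, the block stayed an alternative, printed where it changes a call.

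The naming rule took up to 12 called genes per direction with the largest difference at a mean log2 CPM of at least 1, up to 10 at a mean of at least 5, up to 4 per gene list, 10 reference genes and the 4 smallest interaction p-values, 100 genes in all; cloned or predicted loci were passed over. Some of them are not reported here. Defining markers of other cells were named beside them. The 36 gene lists, the libraries compared and the rule were chosen with earlier results of these data known. Alternatives were DESeq2 1.42.0, other scalings and filters, blocks, covariates and leaving out each library. Gene positions are from GENCODE M21 (GRCm38) and upstream sequences from RefSeq (GRCm38.p6); 10930 of 15218 tested genes matched the latter by symbol.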

Additional observations from a re-analysis of the deposited data

Results flagged for a closer look

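Of 238 sets of 4 or 6 library values examined, 9 held a library far from the rest of its region, and chance gives about 1 in 20. NAC control 3 was high for Zic4 (8.73 CPM, the other NAC libraries 3.16 to 4.55) and Otx2 (19.6 CPM, the others 12.3 to 13.8), and low for Coch (1.58 CPM, the others 2.73 to 3.5). All of these values stayed on the NAC side of the CPU range. For Fos, an immediate early gene that was not called, NAC resilient 1 was low (12.6 CPM, the others 17.5 to 20.9) and so was CPU resilient 1 (9.43 CPM, the others 14.3 to 15.3). CPU resilient 1 was high for Ctxn3 (1.04 CPM, the others 0.260 to 0.330), and CPU control 2 was low for Pcdhgc5 (34.4 CPM, the others 50.8 to 54.3) and for Slc22a6 (0.0372 CPM, the others 0.189 to 0.228), the last on very few counts. CPU control 2 was also high for Efhd2 (639 CPM, the others 491 to 512).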

How the results depend on the processing

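The 410 calls became 1012 with DESeq2 (575 higher, 437 lower), 140 with at least 10 CPM in 4 libraries (85 and 55; 9595 genes tested), 80 with the labels' replicate number as a block (60 and 20; the numbers did not pair the libraries), 2210 with the short file-name numbers, which correlate between the regions, as a block in the 8 libraries that have them (1050 and 1160; 326 in these libraries without the block), 1950 with stressed libraries added (1026 and 924), 745 with a neuron marker term (409 lower), and, both added after seeing the data, 54 with a meningeal marker term (43 and 11) and 1011 without NAC and CPU control 2 (429 and 582). Resilient libraries alone gave 11 (2 and 9) and control libraries alone 0. Leaving out 1 library gave 85 to 436 calls (56 to 279 higher, 29 to 185 lower). RLE or upper-quartile scaling, no filter and no condition block gave 402 to 423. Every called gene tested kept its sign throughout, but all of these fits share libraries with the fit that chose the genes. Of 2922 values compared for 119 single genes, 34 changed sign, each where neither fit called the gene.

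Same-number pairs of stressed libraries had correlations of −0.104 to 0.404, so their numbers did not pair them either; the 33 stressed calls became 690 with DESeq2, 68 with no filter, 12 with the 10 CPM filter, 1468 with the replicate block and 1 to 367 without 1 library. The interaction called 0 genes in all 15 alternatives (133 to 511 at an unadjusted p under 0.05). Of the NAC and CPU libraries, NAC control 1, NAC resilient 1 and NAC stressed 4 have the long file-name form; the stressed count of 367 is the one without NAC stressed 4. The cause of these shifts was not tested. Genes at a few counts per library, such as Crh and Slc22a6, are limited by depth.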

Other observations

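Some abundant transcripts outside the naming rule, chosen after their values were seen, also differed between the regions. Mgll, the lipase that breaks down the endocannabinoid 2-arachidonoylglycerol, had 849 to 1192 CPM (median 943) in NAC and 609, 629, 476 and 526 CPM in CPU (log2 difference 0.84 ± 0.105, SE; edgeR adjusted p = 0.00339); Cnr1, a receptor for that lipid, was lower in NAC. Heyl, a Notch target like Hes5, averaged 108 ± 10.9 CPM in NAC and 56 ± 9.53 CPM in CPU (0.95 ± 0.124, adjusted p = 0.00408). Efhd2, a calcium-binding protein gene, averaged 906 ± 113 CPM in NAC and 537 ± 68.7 CPM in CPU (0.75 ± 0.118, adjusted p = 0.00933). Cdo1, the cysteine dioxygenase on the route to taurine, had 135 to 168 CPM (median 152) in NAC and 251, 224, 291 and 310 CPM in CPU (−0.82 ± 0.0828, adjusted p = 0.00111), and it passed in stressed libraries as well (−1.02, adjusted p = 0.0452). For none of these 4 genes did the NAC and CPU ranges overlap.

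Transcripts that the rule named but no list held included Cdc42ep1, an effector of the small GTPase Cdc42, with 86.9 ± 14.8 CPM in NAC and 41.2 ± 5.49 CPM in CPU (1.08 ± 0.141, adjusted p = 0.00408; 1.02, adjusted p = 0.0341 in stressed libraries). Slc30a3, the zinc transporter of synaptic vesicles, averaged 3.81 ± 2.44 CPM in NAC and 0.658 ± 0.266 CPM in CPU (2.50 ± 0.389, adjusted p = 0.00933). AW551984 averaged 3.21 ± 1.2 CPM in NAC and 0.517 ± 0.288 CPM in CPU (2.60 ± 0.386, adjusted p = 0.008), and Ctxn3 averaged 3.38 ± 1.01 CPM in NAC and 0.487 ± 0.369 CPM in CPU (2.77 ± 0.433, adjusted p = 0.00935).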
